A study of Mus musculus with 17 samples.

Results

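Transcripts of 9 genes of cytokine signalling were followed through mouse spleen: the receptor subunits of the type I interferons (Ifnar1, Ifnar2) and of interferon gamma (Ifngr1, Ifngr2), the kinase Jak2, and the transcription factors Stat2, Stat3, Stat4 and Stat6. They were taken by exact name from the 38340 named genes of the deposited expression table, and all 9 passed the filter on low values. RNA was sequenced in 17 spleen libraries from mice of the strain given as CB57BL/6NCrl. Of these, 3 were labelled with each of SLR10, SLR14, poly(I:C) and pppNS, 2 with vehicle and 3 as naive, which the design text calls untreated. The study's title concerns ligands of RIG-I, which detects viral RNA in the cytosol, and the SLRs are such RNAs, while poly(I:C) mimics double-stranded RNA and is recognised by several sensors. Each SLR was carried by in vivo-jetPEI, a polyethylenimine reagent (N/P ratio 8), and the dose into a vein was 25 µg RNA per mouse, in 200 µl. That protocol is attached to every library, so the route and dose of poly(I:C) and pppNS are not stated apart; the vehicle was jetPEI. The time from injection to collection, the sex and the age are not stated.

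Interferons and many interleukins signal through paired receptor chains that hold Janus kinases (JAKs) on their inner side. A bound ligand brings the chains together, the kinases phosphorylate STAT proteins, and STAT dimers enter the nucleus and bind DNA. Type I interferons use Ifnar1 and Ifnar2 and assemble a factor that contains Stat2 and Irf9, while interferon gamma uses Ifngr1 and Ifngr2, and Jak2 sits on the Ifngr2 chain. Interleukin 6 and interleukin 10 act through Stat3, interleukin 12 through Stat4, and interleukin 4 and interleukin 13 through Stat6.

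Levels are the authors' normalised values, called CPM, and 1 read was worth 0.0175 to 0.0431 CPM at a depth of 26.5 M to 42.8 M reads. Reads of the named genes were 15.8 M to 29.6 M. The smallest summed count behind a group mean of a member was 1925 reads (Ifngr2, poly(I:C)). The B cell and red pulp macrophage markers of spleen were found in every library. Their summed levels were lower in all SLR and poly(I:C) libraries than in all controls, but not every marker fell. Against vehicle, 1, 2 and 3 of the 6 B cell markers passed the test below as lower in SLR10, SLR14 and poly(I:C). Of the 6 red pulp macrophage markers, 4, 4 and 2 did, and none of either list passed as higher. Mean Spic, Vcam1 and Ms4a1 of these lists were 70.9, 281 and 354 CPM in vehicle and 91.6, 335 and 413 in SLR10. Erythroid markers (7 of the 8 listed were in the table) set some libraries apart: their mean log2(CPM + 0.5) was 9.65 in SLR14 replicate 2, 10.1 and 9.06 in poly(I:C) replicates 2 and 3, and 8.13 to 10.4 in pppNS. In all 3 SLR10 libraries it was 5.33 to 5.71, in vehicle 5.65 and 6.20, and in naive 6.82 to 7.93. Changes below are differences of mean log2(CPM + 0.5) from a limma fit of all 17 libraries, and a gene is said to rise or fall where its p, adjusted over the 14010 genes tested, was under 0.05. The labels do not state that each replicate is a separate mouse, and if they are not, the p-values measure only the spread between these samples. In whole spleen, fewer cells of a type and less RNA per cell cannot be told apart.

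The stretches just upstream of 4 of the genes are printed because their calls against vehicle differed. Stat2 rose the most, Stat3 rose in fewer groups, Ifnar2 passed the test with poly(I:C) alone, and Ifngr1 fell. For Ifnar2, the direct difference between the SLRs and poly(I:C) did not pass. Each is 250 bases, 5′ to 3′ on the gene's strand and ending at the base before the RefSeq transcript start (build GRCm38.p6). Capitals mark matches to 3 motifs, searched on both strands of windows that reach 50 bases past the start: TTCNNNGAA, the core of the interferon-gamma-activated site (GAS); GAAA and GAAA (or TTTC and TTTC) with any 2 bases between them, the core of the interferon-stimulated response element (ISRE); and TTC and GAA with any 4 bases between them, the wider spacing that Stat6 can bind. Stat2 lies at chr10:128270248-128270497 (+ strand), Stat3 at chr11:100939541-100939790 (- strand), Ifnar2 at chr16:91372533-91372782 (+ strand) and Ifngr1 at chr10:19591699-19591948 (+ strand).
Stat2: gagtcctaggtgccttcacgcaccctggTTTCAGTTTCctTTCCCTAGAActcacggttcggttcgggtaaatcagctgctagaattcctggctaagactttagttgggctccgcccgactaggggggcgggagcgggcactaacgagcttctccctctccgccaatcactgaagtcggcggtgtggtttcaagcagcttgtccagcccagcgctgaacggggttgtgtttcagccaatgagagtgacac
Stat3: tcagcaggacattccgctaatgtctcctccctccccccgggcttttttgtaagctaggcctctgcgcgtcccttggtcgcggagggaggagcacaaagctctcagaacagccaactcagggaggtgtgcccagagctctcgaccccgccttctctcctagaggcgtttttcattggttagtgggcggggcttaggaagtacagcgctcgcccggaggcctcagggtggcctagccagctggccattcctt
Ifnar2: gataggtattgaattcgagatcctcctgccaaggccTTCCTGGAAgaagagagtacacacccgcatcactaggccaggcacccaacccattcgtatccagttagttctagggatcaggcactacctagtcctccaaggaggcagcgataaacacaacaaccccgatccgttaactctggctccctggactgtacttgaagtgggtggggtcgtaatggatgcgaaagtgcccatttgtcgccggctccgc
Ifngr1: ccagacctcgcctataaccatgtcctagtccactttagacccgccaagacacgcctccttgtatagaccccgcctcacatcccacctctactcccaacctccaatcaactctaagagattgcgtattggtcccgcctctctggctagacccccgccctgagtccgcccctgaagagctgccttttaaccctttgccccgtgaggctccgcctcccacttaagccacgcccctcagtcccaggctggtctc

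The Stat2 window held an ISRE match, TTTCAGTTTC, at bases -222 to -213 from the start, and next to it, not overlapping, the wider-spaced match TTCCCTAGAA at -210 to -201. In Ifnar2 a GAS match, TTCCTGGAA, lay at -214 to -206. No match to the 3 motifs was in the Stat3 and Ifngr1 windows. Of the other genes, Ifnar1 had a GAS match across its start, Ifngr2 had TTCCCGGGAA at -91 to -82, and Stat4 had an ISRE match, GAAAGTGAAA, in its second window and none in its first. Stat6 and Jak2 had no match. The 9 genes have 10 windows in the table. A count over 32851 windows of that length left out a chromosome that carries none of the 9 genes. Of these windows, 8.3% held GAS, 3.44% the ISRE core and 6.95% the wider spacing. A match describes letters and is not evidence of binding.

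By position in GRCm38 (GENCODE vM21), 3 of the 4 receptor genes sit in a row on chromosome 16, all on the + strand: Ifnar2 at 91372783-91405589, Ifnar1 at 91485238-91507441 and Ifngr2 at 91547072-91565623. Il10rb, a chain shared by the receptors of interleukin 10 and type III interferons, lies between Ifnar2 and Ifnar1, and the whole cluster spans 193 kb. Ifngr1 is apart from them on chromosome 10, at 19591949-19610229, and that chromosome also carries Stat2 (128270559-128292849) and Stat6 (127642986-127660957). Stat3 is on chromosome 11 (100885098-100939540, - strand), Stat4 on chromosome 1 (51987148-52107189) and Jak2 on chromosome 19 (29251828-29313080). Stat3 overlaps Stat5a and Stat6 overlaps Nab2 on the opposite strand, and Ifnar2 overlaps the gene model Gm21970 on its own strand. The strand setting of the authors' counting is not stated, so reads in these overlaps cannot be assigned with certainty.

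Against vehicle, SLR10 and SLR14 each changed 5 of the 9 genes: Stat2, Stat3 and Jak2 rose, and Ifngr1 and Ifngr2 fell. Poly(I:C) changed 6: Stat2, Stat3, Jak2 and Ifnar2 rose, and Ifngr1 and Ifngr2 fell. With pppNS 2 changed, a rise of Stat2 and a fall of Ifngr1. Of all genes tested, 39.4% changed with SLR10 (20.2% rose and 19.2% fell) and 38.7% with SLR14 (19.3% and 19.4%). The shares were 35.9% with poly(I:C) (18.6% and 17.3%) and 4.3% with pppNS (2.96% and 1.35%), so the counts of 5 or 6 of 9 are of the order of that background, and the 2 with pppNS are too few to read. The 4 comparisons share the 2 vehicle libraries, so a vehicle value enters all of them, as the plot of changes against vehicle shows for each gene.

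The median change of the 9 genes was 0.29 for SLR10, 0.36 for SLR14, 0.63 for poly(I:C) and -0.13 for pppNS, beside -0.01, 0.04, 0.07 and 0.01 for all genes tested. Quantile scaling in place of the authors' scaling lowered the median of all genes to -0.09, -0.07, -0.09 and -0.10. It turned the split of poly(I:C) calls from 2606 higher and 2424 lower to 1959 and 3042, and that of pppNS from 414 and 189 to 374 and 324. Values under that scaling are given below beside the members they bear on.

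**Figure D1:**
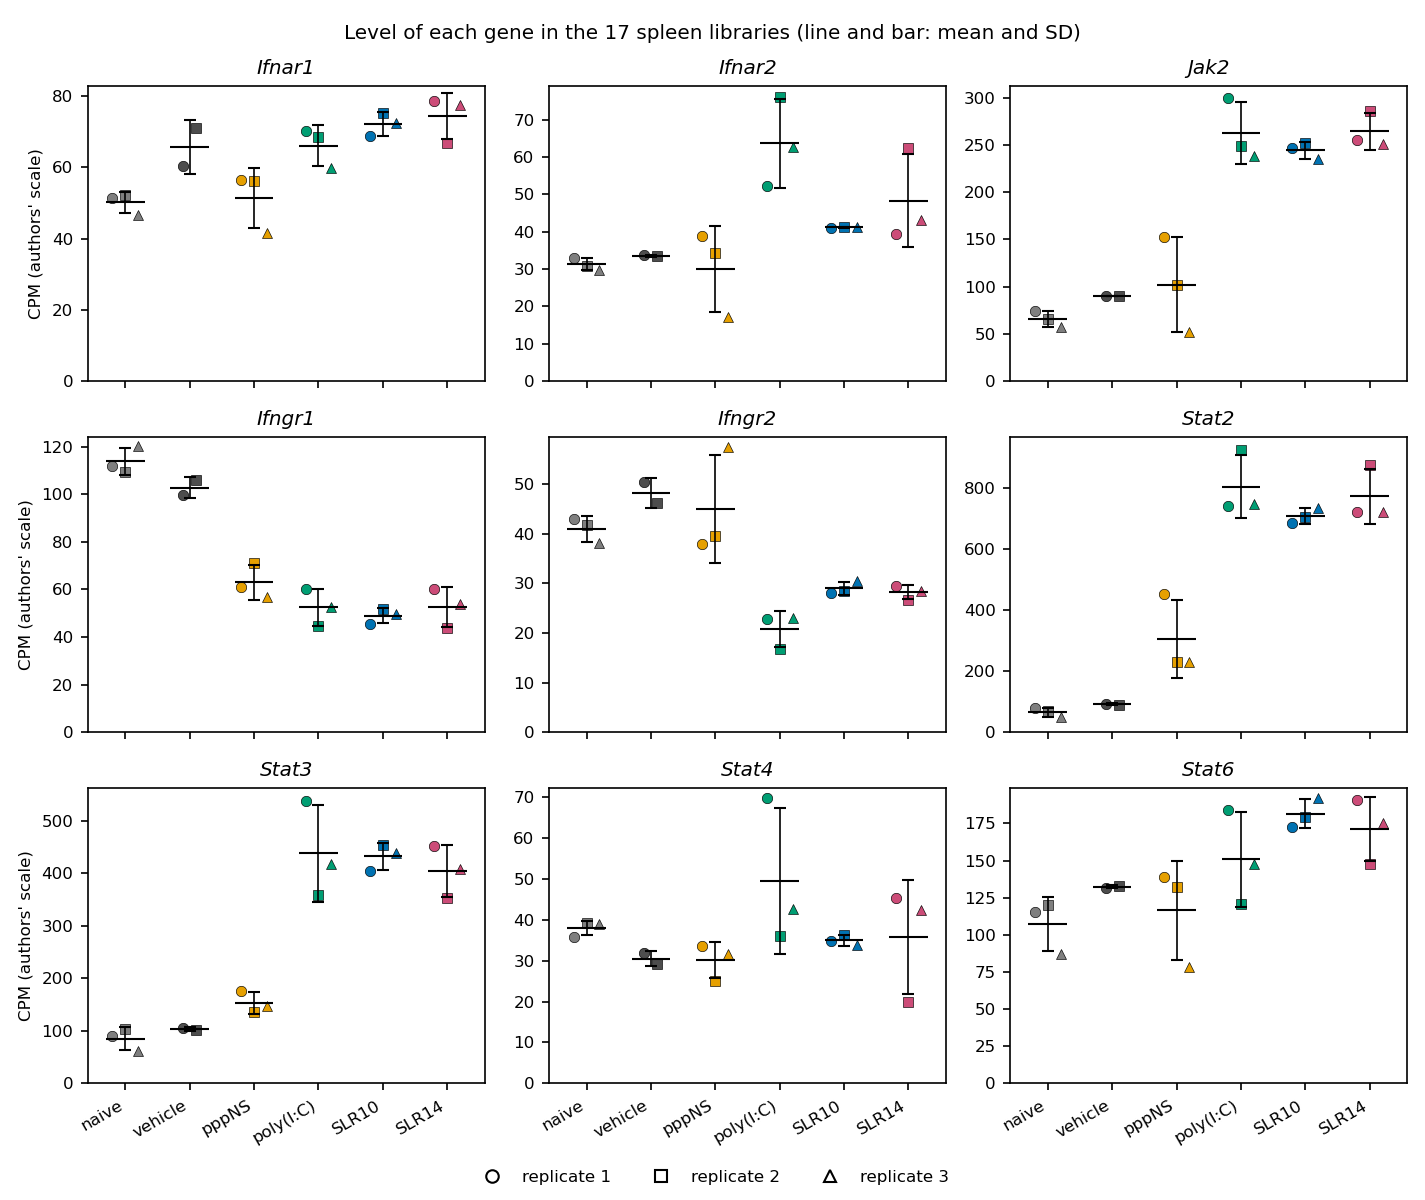
Level of each of the 9 genes (CPM, y axis, from 0) in every library by group; symbols are replicates 1 to 3, lines are means and bars SDs (n = 3, vehicle n = 2). In Stat2, Stat3 and Jak2 the SLR10, SLR14 and poly(I:C) libraries lie above all control libraries, and in Ifngr1 all 12 RNA libraries lie below the 5 controls.

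**Figure D2:**
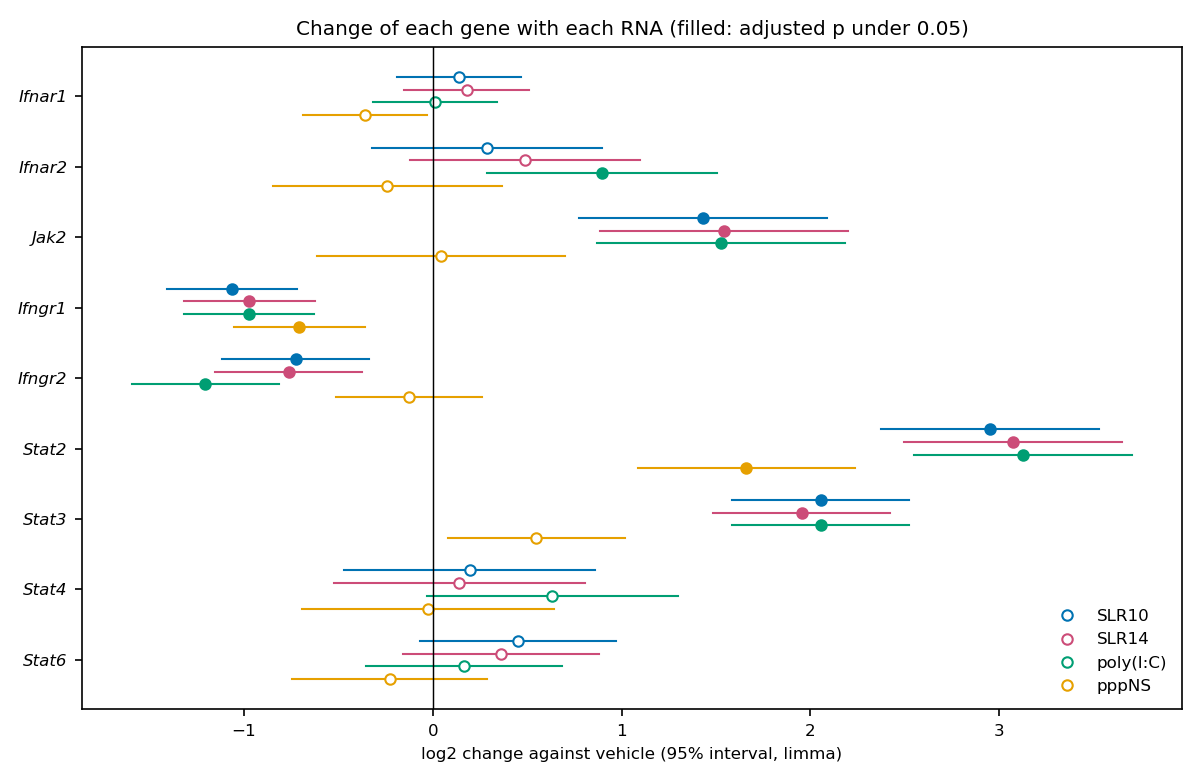
Change of each gene against vehicle (log2 units, x axis) for SLR10, SLR14, poly(I:C) and pppNS, with 95% intervals from limma; filled points have an adjusted p under 0.05. Stat2 is filled for all 4 RNAs, and Stat3 and Jak2 for all but pppNS.

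Of the type I interferon receptor, the Ifnar2 transcript rose with poly(I:C), by 1.86-fold, while Ifnar1 did not pass the test with any RNA. Ifnar1 is the chain that holds the kinase Tyk2, and Ifnar2 the chain that binds interferon with the higher affinity. Ifnar1 was at 68.7, 75.2 and 72.6 CPM in the SLR10 libraries, 78.7, 66.9 and 77.5 in SLR14 and 70.3, 68.5 and 59.7 in poly(I:C). In pppNS it was at 56.5, 56.2 and 41.6, in vehicle at 60.3 and 71.1 and in naive at 51.5, 52.3 and 46.6. The 2 vehicle libraries lay within the range of the SLR and poly(I:C) libraries, and the 3 naive libraries lay below all of these. The change of Ifnar1 against vehicle was 0.14 (95% interval -0.19 to 0.47, adjusted p = 0.531) with SLR10, 0.18 (95% interval -0.15 to 0.51, adjusted p = 0.404) with SLR14, 0.01 (95% interval -0.32 to 0.34, adjusted p = 0.968) with poly(I:C) and -0.36 (95% interval -0.69 to -0.03, adjusted p = 0.189) with pppNS. Against naive in place of vehicle, Ifnar1 was higher by 0.52 with SLR10 (adjusted p = 0.00583), 0.56 with SLR14 (adjusted p = 0.00364) and 0.39 with poly(I:C) (adjusted p = 0.0297). Under quantile scaling the poly(I:C) change against vehicle turned to -0.48 (adjusted p = 0.0452), and those of both SLRs to -0.27.

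Ifnar2 stood at 52.3, 76.1 and 62.8 CPM in the poly(I:C) libraries, against 33.8 and 33.4 in vehicle and 33.1, 30.9 and 29.9 in naive. SLR10 gave 40.9, 41.3 and 41.3, SLR14 39.3, 62.5 and 43.1 and pppNS 38.8, 34.4 and 17.1. All poly(I:C), SLR10 and SLR14 libraries were above the 5 controls, and pppNS replicate 3 was the lowest of the 17. Ifnar2 rose by 0.90 with poly(I:C) (95% interval 0.29 to 1.50, adjusted p = 0.0233). The values for SLR10 (0.29 (95% interval -0.32 to 0.90, adjusted p = 0.472)), SLR14 (0.49 (95% interval -0.12 to 1.10, adjusted p = 0.202)) and pppNS (-0.24 (95% interval -0.85 to 0.37, adjusted p = 0.584)) missed the threshold. That of SLR10 passed with only the groups compared in the limma fit, which called more of all genes than the main fit (0.29, adjusted p = 0.00226). That of SLR14 passed without pppNS replicate 3 (0.49, adjusted p = 0.0376). The rise with poly(I:C) lost its call without poly(I:C) replicate 2 (0.76, adjusted p = 0.0784) or replicate 3 (0.90, adjusted p = 0.0508) and under quantile scaling (0.54, adjusted p = 0.138). With either vehicle library left out, the size stayed at 0.90 (without replicate 1, adjusted p = 0.103) and 0.89 (without replicate 2, adjusted p = 0.110), and the lone vehicle library is then assumed to vary like the other groups. The 3 libraries with the highest Ifnar2 were poly(I:C) replicates 2 and 3 and SLR14 replicate 2, the SLR14 and poly(I:C) libraries with high erythroid markers. Without these 3, the poly(I:C) value was 0.63 (adjusted p = 0.230), which rests on 1 poly(I:C) library. The library with the highest erythroid level of all, pppNS replicate 3, had the lowest Ifnar2. With the erythroid markers as a covariate, the poly(I:C) call against vehicle was kept. The part of these markers in the result was not tested further.

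Both chains of the interferon gamma receptor fell with SLR10, SLR14 and poly(I:C), and the ligand-binding chain Ifngr1 fell with pppNS as well. In vehicle it was at 99.5 and 106 CPM and in naive at 112, 109.5 and 120.2. With SLR10 it was at 45.6, 51.6 and 49.8, with SLR14 at 60.1, 43.7 and 54.0, with poly(I:C) at 60.2, 44.7 and 52.6 and with pppNS at 61.1, 71.1 and 56.9. The highest of the 12 RNA libraries, pppNS replicate 2, was below the lowest of the 5 controls, vehicle replicate 1. Ifngr1 fell to 0.479 of the vehicle level with SLR10 (-1.06 (95% interval -1.41 to -0.72, adjusted p = 0.000124)) and to 0.510 with SLR14 (-0.97 (95% interval -1.32 to -0.63, adjusted p = 0.000266)). With poly(I:C) the ratio was 0.510 (-0.97 (95% interval -1.32 to -0.63, adjusted p = 0.000300)), and with pppNS it was 0.613 (-0.71 (95% interval -1.05 to -0.36, adjusted p = 0.0220)). With 1 vehicle library the pppNS value stayed near that size, at -0.75 without replicate 1 (adjusted p = 0.131) and -0.66 without replicate 2 (adjusted p = 0.239). The pppNS call was also lost with only the pppNS and vehicle libraries in the fit (adjusted p = 0.244) and with the erythroid markers as a covariate (-0.48, adjusted p = 0.0768). Quantile scaling made the falls larger, -1.59 with SLR10, -1.54 with SLR14 and -1.59 with poly(I:C).

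Ifngr2, the chain that carries Jak2, was at 50.4 and 46.2 CPM in vehicle and 43.0, 41.8 and 38.1 in naive. It was at 28.1, 28.5 and 30.5 with SLR10, 29.6, 26.7 and 28.5 with SLR14 and 22.9, 16.7 and 23.1 with poly(I:C). These 9 libraries were below all controls, and the poly(I:C) libraries were below all 6 SLR libraries. With pppNS the values were 38.0, 39.5 and 57.5, which overlapped the controls, and replicate 3 was the highest of the 17 libraries. Ifngr2 fell by 0.73 with SLR10 (95% interval -1.11 to -0.34, adjusted p = 0.00535), by 0.76 with SLR14 (95% interval -1.15 to -0.37, adjusted p = 0.00399) and by 1.20 with poly(I:C) (95% interval -1.59 to -0.82, adjusted p = 0.000134). With pppNS the difference was -0.13 (95% interval -0.51 to 0.26, adjusted p = 0.656). Without vehicle replicate 1, which leaves 1 vehicle library, the SLR10 value was -0.66 and missed the threshold (adjusted p = 0.0558).

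Markers of several cell types moved in the libraries where the receptor fell. Of the 5 monocyte markers, 3 fell with each of SLR10, SLR14 and poly(I:C) and 2 with pppNS, and their summed level was 373 to 449 CPM in controls, 224 to 395 in the SLR10, SLR14 and poly(I:C) libraries and 318 to 348 in pppNS. Ly6c2 and Fn1 of that list passed no test against vehicle: the mean of Ly6c2 was 33.1 CPM in vehicle, 60.4 for SLR10, 57.6 for SLR14, 39.8 for poly(I:C) and 65.9 for pppNS, and that of Fn1 was 76.4 in vehicle, 142 for SLR10, 146 for SLR14, 112 for poly(I:C) and 83.4 for pppNS. Of the 6 conventional dendritic cell markers, 5 fell with each SLR, 6 with poly(I:C) and 2 with pppNS (summed level 128 to 166 CPM in controls, 54.3 to 72 in the SLR and poly(I:C) libraries, 106 to 121 in pppNS). The 8 T cell markers had 4 falls with each SLR and with poly(I:C) and none with pppNS. No marker of these lists was at 0 in any library. Their part in the falls of Ifngr1 and Ifngr2 was not tested.

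The ratio of the subunit transcripts within a library is not changed by a scaling factor per library, but quantile scaling, which is no single factor, can change it. The log2 ratio of Ifngr2 to Ifngr1 was -0.86 ± 0.38 (SD, n = 12) in the RNA libraries and -1.31 ± 0.25 (SD, n = 5) in the controls, a difference of 0.45 (two-sided exact permutation test over 6188 rearrangements, p = 0.0249, adjusted over the 2 ratios 0.0498). The test pooled 4 RNAs against 2 controls and rearranged single libraries, so its p takes no account of the groups. The SLR10 and pppNS libraries were all above the control range, while poly(I:C), at -1.38, -1.40 and -1.17, lay within the control range of -1.64 to -0.97. The highest ratio was that of pppNS replicate 3, where the CPM of Ifngr2 was 1.01 times that of Ifngr1. Without the 3 pppNS libraries the difference was 0.33 (adjusted p = 0.0989), and the call also ended with a pseudocount of 0.1 (adjusted p = 0.053). Under quantile scaling, an alternative chosen after seeing the data, the difference was 0.72 (adjusted p = 0.000970). For Ifnar2 to Ifnar1 the log2 ratio was -0.59 ± 0.44 (SD, n = 12) against -0.78 ± 0.18 (SD, n = 5), a difference of 0.20 by the same two-sided exact permutation test (p = 0.352), and 0.33 under quantile scaling (adjusted p = 0.115). Its CPM ratio was 1.11 and 1.05 in poly(I:C) replicates 2 and 3 and 0.934 in SLR14 replicate 2, the 3 highest of the 17, as the plot of subunit ratios shows.

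**Figure D3:**
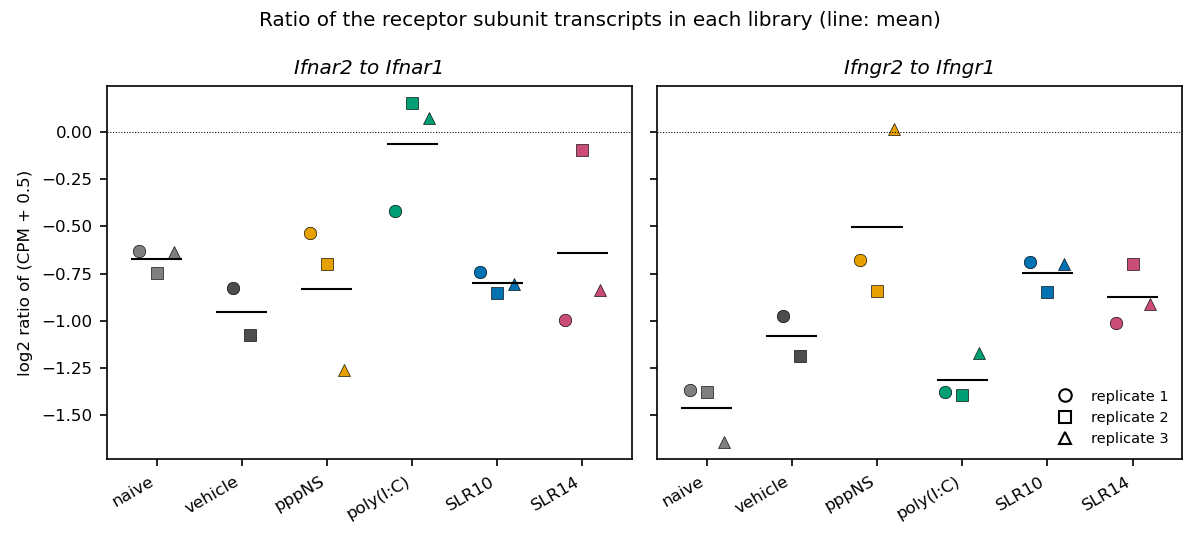
Log2 ratio of (CPM + 0.5) of the receptor subunits in each library by group, Ifnar2 to Ifnar1 on the left and Ifngr2 to Ifngr1 on the right; symbols are replicates and lines are group means. Poly(I:C) replicates 2 and 3 and SLR14 replicate 2 are highest on the left, and pppNS replicate 3 is highest on the right.

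The kinase Jak2 rose with SLR10, SLR14 and poly(I:C). Besides interferon gamma, it serves the receptors of interleukin 12 and of erythropoietin. Jak2 was at 247, 252 and 235 CPM with SLR10, 255, 286 and 251 with SLR14 and 299.8, 249 and 238 with poly(I:C). Vehicle stood at 90.3 and 90.0 and naive at 73.9, 65.5 and 57.3. The 9 libraries were all above the controls and did not overlap them. The pppNS libraries were spread widely, at 153, 102 and 51.5: replicates 1 and 2 were above every control and replicate 3 below every control. The fold over vehicle was 2.70 with SLR10 (1.43 (95% interval 0.78 to 2.09, adjusted p = 0.00185)), 2.91 with SLR14 (1.54 (95% interval 0.89 to 2.20, adjusted p = 0.00108)) and 2.88 with poly(I:C) (1.53 (95% interval 0.87 to 2.18, adjusted p = 0.00131)). With pppNS the difference was 0.04 (95% interval -0.61 to 0.70, adjusted p = 0.937). Quantile scaling ended all 3 calls, with 0.75 for SLR10 (adjusted p = 0.102), 0.83 for SLR14 (adjusted p = 0.0706) and 0.79 for poly(I:C) (adjusted p = 0.0891).

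Stat2, the factor that joins Irf9 downstream of type I interferon, had the largest change of the 9 genes with every RNA. Its level was 687, 705 and 737 CPM with SLR10, 723, 879 and 723 with SLR14 and 741, 925 and 751 with poly(I:C). With pppNS it was 454, 232 and 232. Vehicle libraries were at 94.0 and 88.8 and naive libraries at 78.7, 68.8 and 48.3. The 4 RNA groups did not overlap the controls, and pppNS, with replicate 1 well above the other 2, lay between the controls and the other RNAs without overlap. The fold over vehicle was 7.73 with SLR10 (2.95 (95% interval 2.37 to 3.53, adjusted p = 1.52e-06)), 8.40 with SLR14 (3.07 (95% interval 2.49 to 3.65, adjusted p = 1.05e-06)), 8.73 with poly(I:C) (3.13 (95% interval 2.55 to 3.70, adjusted p = 9.88e-07)) and 3.16 with pppNS (1.66 (95% interval 1.08 to 2.24, adjusted p = 0.00262)). With only the pppNS and vehicle libraries in the fit, the pppNS call was lost (adjusted p = 0.154). No other setting ended a Stat2 call against vehicle, and quantile scaling lowered the changes to 2.35, 2.38, 2.45 and 1.47.

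Stat3, which serves interleukin 6 and interleukin 10, rose with SLR10, SLR14 and poly(I:C). It was at 404, 453 and 438 CPM with SLR10, 452, 353 and 407 with SLR14 and 538, 358 and 417 with poly(I:C), against 106 and 101 in vehicle and 89.9, 103 and 61.6 in naive. The pppNS libraries, at 175, 135 and 147, were above all controls and below all of the other RNA libraries. The fold over vehicle was 4.15 with SLR10 (2.05 (95% interval 1.59 to 2.52, adjusted p = 5.96e-06)), 3.87 with SLR14 (1.95 (95% interval 1.48 to 2.42, adjusted p = 9.01e-06)) and 4.15 with poly(I:C) (2.05 (95% interval 1.59 to 2.52, adjusted p = 6.71e-06)). Quantile scaling gave 1.30, 1.15 and 1.24 and left these calls in place. With pppNS the difference was 0.55 (95% interval 0.08 to 1.02, adjusted p = 0.172), and it passed the test with naive as the control (0.86, adjusted p = 0.0113) or with the erythroid covariate (0.83, adjusted p = 0.0341).

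Stat6, the factor of interleukin 4 and interleukin 13, did not pass the test against vehicle with any RNA. Its libraries were at 173, 179.5 and 192 CPM with SLR10, 191, 148 and 175 with SLR14, 184, 121 and 148 with poly(I:C) and 139, 132 and 78.2 with pppNS. Vehicle was at 132 and 133 and naive at 115, 119.9 and 86.8. All SLR libraries were above all 5 controls, while poly(I:C) replicate 2 was below vehicle and pppNS replicate 3 was the lowest of the 17. The difference from vehicle was 0.45 (95% interval -0.07 to 0.97, adjusted p = 0.160) with SLR10, 0.36 (95% interval -0.15 to 0.88, adjusted p = 0.269) with SLR14, 0.17 (95% interval -0.35 to 0.68, adjusted p = 0.635) with poly(I:C) and -0.23 (95% interval -0.75 to 0.29, adjusted p = 0.542) with pppNS. Against naive, Stat6 was higher by 0.77 with SLR10 (adjusted p = 0.00879) and 0.68 with SLR14 (adjusted p = 0.0182). Against vehicle, the SLR10 value passed with only the groups compared in the limma fit, which called more of all genes than the main fit (0.45, adjusted p = 0.000307). It also passed without pppNS replicate 3 (0.45, adjusted p = 0.0471). The SLR14 value passed with the erythroid covariate (0.50, adjusted p = 0.0325). Under quantile scaling the signs against vehicle turned, to -0.30, -0.42 and -0.64 for SLR10, SLR14 and poly(I:C), none past the threshold.

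Stat4, found mainly in T and NK cells, where interleukin 12 activates it, also passed no test against vehicle in the main fit. It was at 34.9, 36.4 and 33.7 CPM with SLR10, 45.3, 19.8 and 42.4 with SLR14, 69.7, 36.1 and 42.6 with poly(I:C) and 33.7, 25.1 and 31.8 with pppNS. In vehicle it was at 31.8 and 29.2 and in naive at 35.9, 39.2 and 38.9. The highest library was poly(I:C) replicate 1 and the lowest SLR14 replicate 2, which were also the lowest and a high library for erythroid markers, as the plot against those markers shows. The difference from vehicle was 0.20 (95% interval -0.47 to 0.86, adjusted p = 0.677) with SLR10, 0.14 (95% interval -0.52 to 0.81, adjusted p = 0.768) with SLR14, 0.63 (95% interval -0.03 to 1.30, adjusted p = 0.132) with poly(I:C) and -0.02 (95% interval -0.69 to 0.64, adjusted p = 0.966) with pppNS. The SLR10 value passed with only the groups compared in the limma fit, which called more of all genes than the main fit (0.20, adjusted p = 0.0340). With the erythroid markers as a covariate, the poly(I:C) value was 0.98 (adjusted p = 0.00113). Without SLR14 replicate 2 and poly(I:C) replicates 2 and 3 it was 1.18 (adjusted p = 0.000799), resting on 1 poly(I:C) library, and that of SLR14 was 0.52 (adjusted p = 0.0185). T cell markers summed to 348 to 469 CPM in controls and to 181 to 282 in the SLR and poly(I:C) libraries. NK cell markers summed to 51.5 to 67.1 CPM in controls and 76.7 to 119 in the SLR and poly(I:C) libraries, where Eomes and Klrk1 rose with each of the 3 RNAs, Klrb1c and Klra8 fell, and the other 2 of the 6 did not pass. In pppNS the NK cell sum was 38.2 to 57.0, with no call. The part of T and NK cell markers in the Stat4 values was not tested.

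**Figure D4:**
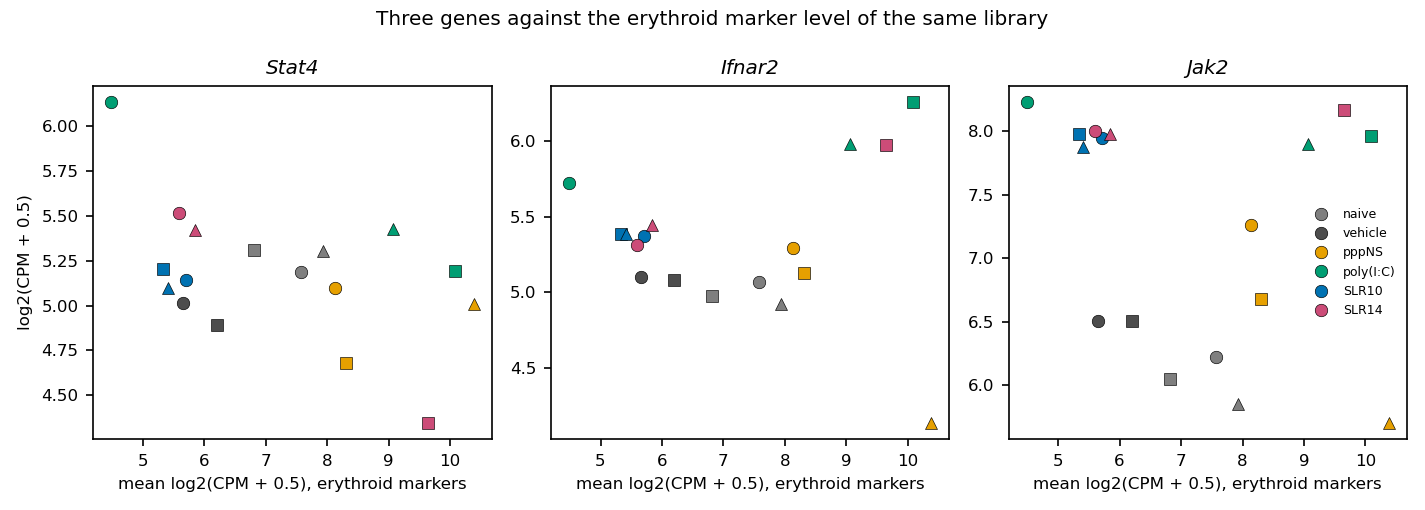
Level of Stat4, Ifnar2 and Jak2 (log2(CPM + 0.5), y axes) against the mean level of the 7 erythroid markers (x axis, same scale) in each library; colours are groups and shapes replicates. In Ifnar2 the libraries with erythroid levels over 9 hold both the 3 highest values and the lowest one.

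SLR14 and SLR10 were compared directly, as 2 SLRs under the same stated protocol. None of the 9 genes differed, in 9 pairs of values adjusted over all genes, and none had an unadjusted p under 0.05 in limma; edgeR and DESeq2 called none either. Over all genes 0% were called (89 at an unadjusted p under 0.05). The differences, SLR14 minus SLR10, ranged from -0.10 (Stat3, 95% interval -0.52 to 0.32) to 0.20 (Ifnar2, -0.35 to 0.74). For Stat2 the difference was 0.12 (-0.39 to 0.64), for Jak2 0.11 (-0.48 to 0.70), for Ifngr1 0.09 (-0.22 to 0.40) and for Ifngr2 -0.04 (-0.38 to 0.31). For Ifnar1 it was 0.04 (-0.25 to 0.34), for Stat6 -0.09 (-0.55 to 0.37) and for Stat4 -0.05 (-0.65 to 0.54). Differences of the size of the Jak2 or Stat4 intervals could not be told from 0.

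Both SLRs together against poly(I:C) gave no call among the 9 genes in limma, beside 3.5% of all genes. At an unadjusted p under 0.05 there were 2, Ifnar2 lower with the SLRs (-0.51 (95% interval -0.98 to -0.04, adjusted p = 0.225)) and Ifngr2 higher (0.46 (95% interval 0.16 to 0.76, adjusted p = 0.0918)). In the Ifngr2 comparison the groups did not overlap, and DESeq2 on the recovered reads called it (0.48, adjusted p = 0.0410), while edgeR called none. Without pppNS replicate 3 in the fit, both passed in limma (adjusted p = 0.0369 for Ifnar2 and 0.0144 for Ifngr2). Stat4 was lower with the SLRs by a value of -0.46 (adjusted p = 0.308), and passed with the erythroid covariate (-0.76, adjusted p = 0.0121). The other differences were small, with Stat2 at -0.12 (95% interval -0.56 to 0.33), Stat3 at -0.05 (-0.41 to 0.31) and Jak2 at -0.04 (-0.55 to 0.47).

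Against pppNS, the SLRs together differed in 7 of the 9 genes, beside 44.9% of all genes (22.8% higher and 22.1% lower). Higher with the SLRs were Stat2 (1.35 (95% interval 0.90 to 1.80, adjusted p = 0.000175)), Stat3 (1.46 (95% interval 1.09 to 1.82, adjusted p = 1.79e-05)), Jak2 (1.44 (95% interval 0.94 to 1.95, adjusted p = 0.000281)), Stat6 (0.64 (95% interval 0.23 to 1.04, adjusted p = 0.0139)), Ifnar2 (0.63 (95% interval 0.16 to 1.10, adjusted p = 0.0321)) and Ifnar1 (0.52 (95% interval 0.26 to 0.77, adjusted p = 0.00316)). Ifngr2 was lower (-0.62 (95% interval -0.92 to -0.32, adjusted p = 0.00298)). Ifngr1 was at -0.31 (95% interval -0.58 to -0.04, adjusted p = 0.0557) and Stat4 at 0.19 (95% interval -0.32 to 0.71, adjusted p = 0.522). Without pppNS replicate 3, the library with the highest erythroid level, the Ifnar2 difference was 0.27 (adjusted p = 0.189) and that of Stat6 0.37 (adjusted p = 0.0723), while Ifngr1 passed (-0.38, adjusted p = 0.0317). Quantile scaling also ended the Stat6 call (0.25, adjusted p = 0.396), as did the erythroid covariate (0.31, adjusted p = 0.164). The Ifnar2 call was lost with only the groups compared in the fit (adjusted p = 0.0902), without SLR14 replicate 2 (0.53, adjusted p = 0.0568) or, at an unchanged 0.63, any SLR10 library (adjusted p = 0.0512, 0.0527 and 0.0530).

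Poly(I:C) against pppNS differed in 5 genes, beside 26.8% of all genes (15.4% higher and 11.4% lower). Stat2 (1.47 (95% interval 0.95 to 1.98, adjusted p = 0.000520)), Stat3 (1.51 (95% interval 1.09 to 1.93, adjusted p = 0.000102)), Jak2 (1.48 (95% interval 0.90 to 2.07, adjusted p = 0.00119)) and Ifnar2 (1.14 (95% interval 0.59 to 1.68, adjusted p = 0.00434)) were higher, and Ifngr2 was lower (-1.08 (95% interval -1.43 to -0.73, adjusted p = 0.000277)). With only the poly(I:C) and pppNS libraries in the fit, Stat3 alone was called; the sizes were the same, and the adjusted p was 0.0592 for Stat2, 0.0837 for Jak2, 0.113 for Ifnar2 and 0.0610 for Ifngr2. Ifnar2 also lost its call without SLR14 replicate 2 and poly(I:C) replicates 2 and 3 (adjusted p = 0.0791), which leaves 1 poly(I:C) library. These calls share the poly(I:C) and pppNS libraries with the comparisons above. Vehicle against naive gave 0 calls among the 9 genes in limma, edgeR and DESeq2, beside 0.05% of all genes. At an unadjusted p under 0.05 there was 1, Ifnar1, higher in vehicle by 0.38 (0.05 to 0.71, adjusted p = 0.518). Stat2 was at 0.51 (-0.07 to 1.09) and Jak2 at 0.46 (-0.19 to 1.12), so vehicle lay above naive for both genes without passing the test.

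Levels of different genes were compared as CPM per kilobase of annotated exon. In naive spleen the most abundant of the 9 transcripts was Ifngr1, at 40.0 ± 1.96 CPM per kb (SD, n = 3), then Stat6 at 24.4 ± 4.07, neither overlapping its neighbour in the order. Jak2 (13.0 ± 1.65), Stat2 (11.0 ± 2.61) and Ifngr2 (10.9 ± 0.677) followed, each overlapping the next, then Stat4 (9.81 ± 0.469), Ifnar2 (9.40 ± 0.489), Stat3 (8.92 ± 2.24) and Ifnar1 (8.44 ± 0.517), which also overlapped each with the next. Vehicle kept the first 5 places in the same order. With SLR10 the order was led by Stat2 at 119.8 ± 4.33 CPM per kb, then Jak2 (48.6 ± 1.77), Stat3 (45.3 ± 2.63) and Stat6 (41.2 ± 2.22), of which the last 3 overlapped each with the next. Next came Ifngr1 at 17.2 ± 1.09, and Ifngr2 was last at 7.70 ± 0.340. SLR14 and poly(I:C) had the same first 4 and the same last gene. With pppNS, Stat2 led at 51.6 ± 21.7, followed by Stat6 (26.5 ± 7.59) and Ifngr1 (22.1 ± 2.57), and every neighbouring pair after Stat2 overlapped. The plot of levels per exon length shows these orders.

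**Figure D5:**
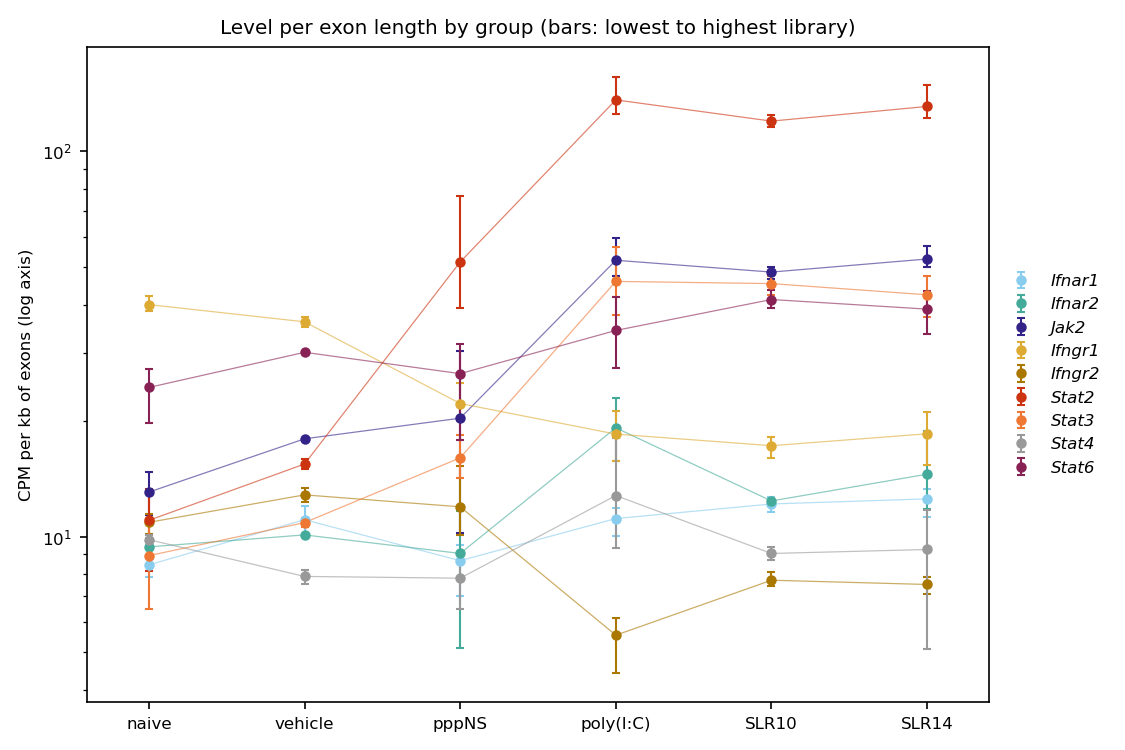
Mean level of each gene in CPM per kb of exon (log axis) by group; bars run from the lowest to the highest library. Ifngr1 is highest in naive and vehicle, and Stat2 is highest in the 4 RNA groups.

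Other genes of the pathway were read from lists of known roles. Of 15 listed ligands and inducing cytokines, 11 passed the filter on low values, and Il4, Il13, Il21 and Il23a did not. Of the 11, 10 rose with each of SLR10, SLR14 and poly(I:C) and 5 with pppNS, beside 20.2%, 19.3%, 18.6% and 2.96% of all genes. The median change of the 11 was 6.45, 6.33, 5.88 and 1.4. Ifnb1, Ifna2, Ifna4, Il6 and Il27 were under 1 CPM in every control and passed the filter only through RNA libraries. These counts and medians were therefore partly set by the filter. Ifnb1, a type I interferon, was at 249.8, 158 and 243 CPM with SLR10 and 76.9, 45.6 and 55.2 with poly(I:C), and 0 and 0.0596 in vehicle. Il6, which signals through Stat3, rose by 7.41 ± 0.45 (SE) with SLR10, 6.69 ± 0.45 with poly(I:C) and 4.05 ± 0.45 with pppNS. Between the SLRs and poly(I:C), 3 of the 11 were higher with the SLRs, beside 3.5% of all genes called in either direction. Ifnb1, among these 3, was higher by 1.87 ± 0.20 (adjusted p = 0.000260).

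In a list of 9 other transducers and type III receptor chains, 4 rose with each of SLR10, SLR14 and poly(I:C), 2 with pppNS, and none fell. Irf9, the partner of Stat2, rose by 1.65 ± 0.18 (SE) with poly(I:C), by 1.28 ± 0.18 and 1.42 ± 0.18 in the SLR10 and SLR14 groups and by 1.10 ± 0.18 with pppNS. Jak3, the kinase of the common gamma chain, rose by 1.41 ± 0.34, 1.08 ± 0.34 and 1.31 ± 0.34 with the first 3 and was at 0.13 ± 0.34 with pppNS. Stat5a, which overlaps Stat3 on the opposite strand, rose by 1.02 ± 0.26, 0.93 ± 0.26 and 1.26 ± 0.26 and was at 0.25 ± 0.26 with pppNS. Among 16 other receptors that use these STATs, 10 rose and 1 fell with SLR10, 9 and 2 with SLR14, 7 and 1 with poly(I:C), and none passed with pppNS. The chains of the interleukin 12 receptor rose with SLR10, Il12rb1 by 4.30 ± 0.32 and Il12rb2 by 2.84 ± 0.38, as did Il10ra, the ligand-binding chain for interleukin 10, by 1.69 ± 0.21.

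Of 17 inhibitors of JAK-STAT signalling, 8 rose with each of SLR10, SLR14 and poly(I:C) and 3 with pppNS. In that order, 2, 2, 3 and 0 fell. The shares of all genes tested were 20.2%, 19.3%, 18.6% and 2.96% for rises and 19.2%, 19.4%, 17.3% and 1.35% for falls. The median change of the inhibitors was 0.41, 0.35, 0.44 and -0.02. Socs1, which blocks JAK kinases, rose by 5.29 ± 0.45 (SE) with SLR10 and 2.98 ± 0.45 with pppNS. Usp18, which binds Ifnar2 and blocks its signalling, rose by 5.36 ± 0.33 and 4.09 ± 0.33. Cish rose with all 4 RNAs and was lower with the SLRs than with poly(I:C), by a value of -0.74 ± 0.17 (adjusted p = 0.0275). Of 16 transcriptional targets, 13 rose with each of SLR10, SLR14 and poly(I:C), and 10 with pppNS; 1, 2, 1 and 0 fell. Mx1, an antiviral GTPase, rose by 5.53 ± 0.34 with SLR10 and 3.43 ± 0.34 with pppNS, and Gbp2, a guanylate-binding protein, by 5.75 ± 0.40 and 2.12 ± 0.40.

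Across the 17 libraries, the patterns of the members are given as a description, since the libraries share their groups and cell makeup. Pearson's r of log2 levels was 0.96 between Stat2 and Stat3, 0.92 between Stat2 and Jak2 and 0.94 between Stat3 and Jak2. Ifngr1 ran opposite to Stat2 (r = -0.96), Ifngr2 opposite to Ifnar2 (r = -0.90), and Stat6 ran with Ifnar1 (r = 0.90). Stat4 stood alone, with r from -0.33 to 0.31 to the other 8.

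Among 9672 named genes with a mean of at least 5 CPM, the 2 nearest in pattern to Stat2 were Adar, an RNA-editing enzyme (r = 0.998), and Hsh2d (r = 0.996). Nearest to Stat3 were Bcl2l11 (r = 0.992) and Larp1 (r = 0.991), and to Jak2 Etnk1 (r = 0.990) and Slfn9 (r = 0.989). For the receptors they were Huwe1 (r = 0.957) and Ice2 (r = 0.955) to Ifnar1, Mtbp (r = 0.970) and Stk24 (r = 0.959) to Ifnar2, Mmgt2 (r = 0.963) and Tspan15 (r = 0.961) to Ifngr1, and Mcfd2 (r = 0.947) and Tmem51 (r = 0.939) to Ifngr2. Zzz3 (r = 0.979) and Acbd3 (r = 0.978) were nearest to Stat6. For Stat4 the likeness was weaker, with Dgat1 (r = 0.830) and Sema4a (r = 0.824).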

How the data were processed

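Whole spleens were profiled by RNA sequencing in 17 libraries, made from 500 ng of total RNA with a stranded mRNA kit per the labels' protocols. The authors deposited 1 table of signal values, reads per gene divided by a normalised library size, headed CPM per the file headers. The submitters' processing notes list the aligner TopHat2 2.0.6 (and TopHat), SAMtools 1.4, FastQC, edgeR and HTSeq, with GRCm38 and mm10; the annotation and strand setting are not given in the sources used here. Of 39184 lines, 5 had no name, 699 were named #N/D, 27 had date numbers as names and 113 repeated 87 names (the first line was kept), which left 38340 genes. Unnamed lines held 28.1% to 31.9% of reads in the controls and 33.7% to 46.1% in the RNA libraries, without overlap. The deposited values of a library summed to 696096 to 748327 in the controls and to 1.06e+06 to 1.28e+06 with SLR10, SLR14 and poly(I:C). With pppNS they summed to 836415, 782210 and 1.48e+06 in replicates 1, 2 and 3. All values were whole multiples of 1 read within 0.05 reads, so reads were recovered for the count tools.

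The 14010 genes that reached 1 CPM in 2 libraries or more were fitted as log2(CPM + 0.5) with limma 3.58.1 (R 4.3.3, mean-variance trend, 6 groups). Changes of low genes are understated on that scale. P-values were adjusted by Benjamini-Hochberg over all genes tested, at a threshold of 0.05. The script was tested on simulated data. Alternatives were other pseudocounts, filters, scalings and controls, edgeR 4.0.16 and DESeq2 1.42.0 on recovered reads, a replicate block, an erythroid covariate and libraries left out. Named genes are the 9 members, genes of a list of other transducers, up to 4 genes of each other list with the smallest adjusted p in SLR10 against vehicle, and the 2 nearest in pattern to each member. The members and lists were chosen with earlier results of these data known. Sequences and motif windows are from RefSeq (GRCm38.p6), and exon lengths from GENCODE vM21.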

Additional observations from a re-analysis of the deposited data

How the results depend on the processing

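Over 31 alternative settings, 2421 values of single genes were recomputed: 2350 kept their side of the threshold (55 uncalled ones changed sign), 30 lost their call, 40 gained one, and 1 turned with a call, Ifnar1 with poly(I:C) against vehicle at -0.48 under quantile scaling. The cause was not tested. All comparisons against vehicle rest on the 2 vehicle libraries, and the part of depth in the calls was not tested. With only the groups compared in the fit, fewer libraries set the spread: member calls became 8 (SLR10), 0 (pppNS) and 1 (poly(I:C) against pppNS), and calls over all genes 9903, 0 and 728, with 0 for vehicle against naive and 839 for both SLRs against poly(I:C).

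For pppNS against vehicle, calls over all genes were 603, and 1398 with DESeq2, 1598 without SLR14 replicate 2 and poly(I:C) replicates 2 and 3, 1526 against naive and 1536 against both controls. For vehicle against naive they were 7, and 4 with a pseudocount of 0.1, 11 with 2, 21 without a filter, 4 with a 5 CPM filter, 16 with quantile scaling (9 higher and 7 lower, in place of 2 and 5), 1 with edgeR, 99 with DESeq2 and 16 without the 3 libraries. DESeq2 called 1 gene between SLR14 and SLR10. For both SLRs against poly(I:C) calls were 491, and 1233 with DESeq2 and 32 without the 3 libraries, which leaves 1 poly(I:C) library; quantile scaling turned the split from 232 higher and 259 lower to 217 and 111. Member calls there were 0, and 1 with DESeq2 (Ifngr2) and 1 with the erythroid covariate (Stat4). The difference in the Ifngr2 to Ifngr1 ratio was 0.45 with a pseudocount of 0.1 (adjusted p = 0.053), 0.33 without pppNS and 0.72 with quantile scaling (adjusted p = 0.000970), the last chosen after seeing the data.

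Leaving out each library in turn, member calls ranged from 4 to 6 (SLR10), 5 to 6 (SLR14), 5 to 7 (poly(I:C)) and 1 to 2 (pppNS) against vehicle, 0 to 0 for vehicle against naive and for SLR14 against SLR10, 0 to 2 for both SLRs against poly(I:C), 6 to 8 for both SLRs against pppNS and 5 to 6 for poly(I:C) against pppNS. Calls over all genes ranged, in that order, from 3767 to 6985, 3703 to 6875, 3262 to 6581, 159 to 969, 0 to 61, 0 to 0, 174 to 1452, 5314 to 6768 and 2798 to 4295. The ratio differences ranged from 0.12 to 0.26 (Ifnar2 to Ifnar1) and 0.37 to 0.54 (Ifngr2 to Ifngr1).

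Replicate numbers are shared across groups. Over 40 pairs of libraries with equal numbers, residuals had a median correlation of 0.03 (15 over 0.1). Over 80 pairs with different numbers it was -0.03 (27 over 0.1). Residuals sum to 0 within a group, so these medians cannot settle whether equal numbers were paired. Single pairs ran from -0.52 to 0.80 with equal numbers and from -0.88 to 0.72 with different ones. In SLR14 and poly(I:C) against vehicle, every pair with equal numbers was over 0.1. With a replicate block the member calls were 5, 5, 6, 2, 0, 0, 0, 7 and 5 in the same order of comparisons, as without it, and those over all genes 5673, 5558, 5225, 513, 6, 0, 542, 6830 and 4100.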

Other observations

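Of the 17 libraries, pppNS replicate 3 was at an end of the range for 5 of the 9 genes. It had the lowest Ifnar1 (41.6 CPM), Ifnar2 (17.1), Stat6 (78.2) and Jak2 (51.5) and the highest Ifngr2 (57.5). Its erythroid marker level was also the highest of all, at 10.4 on the log2 scale. Without this library, calls over all genes for SLR10 against vehicle, a comparison it does not enter, numbered 6985 in place of 5518.

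Some of the 7 neutrophil markers rose with every RNA, and none fell. The rises numbered 4 in SLR10 and in pppNS, beside 20.2% and 2.96% of all genes. In SLR14 and in poly(I:C) they numbered 6, beside 19.3% and 18.6% of all genes. The summed level of the 7 markers was 136 and 138 CPM in vehicle and 204 to 247 in naive. It was 453 to 537 for SLR10, 411 to 939 for SLR14 and 782 to 1389 for poly(I:C). In pppNS it was 350 and 294 in replicates 1 and 2 and 956 in replicate 3.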
